A study of Mus musculus with 23 samples.

Results

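The mitochondrial genome of the mouse prefrontal cortex (PFC) was examined in MBD-seq data, in all 98 of the 210191 windows that lay on chromosome M. In this method sheared DNA is captured by MBD2, a protein that binds methylated CpGs, before sequencing, and reads were counted in windows of 150 bases. The 23 mice were 5 C57BL/6J (B6) control, 6 B6 CORT + DFP, 6 DBA/2J (D2) control, and 6 D2 CORT + DFP mice of both sexes. CORT + DFP mice drank corticosterone at 20 mg% for 7 days, were injected with diisopropyl fluorophosphate (DFP, a surrogate of the nerve agent sarin) at 4 mg per kg, and were given corticosterone again in alternate weeks. Control mice drank water without corticosterone and were injected with saline. The sample names put the mice in 3 sets. Set 1 held 3 B6 mice, all CORT + DFP, and 5 D2 mice, set 2 held B6 mice only, and set 3 held D2 mice only. Mice of set 1 were 196 to 226 days old and the others 145 to 147 days, so the set and the age cannot be told apart.

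Mitochondria carry their own small circular genome, in many copies per cell. It encodes 13 proteins of the respiratory chain, 2 ribosomal RNAs (rRNAs), and 22 transfer RNAs (tRNAs), with a control region that holds the promoters and the start of replication. Nuclear chromosomes carry old copies of parts of this genome, which are annotated as pseudogenes, and short reads from a recent copy can align to either place. In the nuclear genome of the brain most CpGs are methylated, and methylation of mitochondrial CpGs is disputed.

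The 98 windows overlapped 34 of the 37 genes, and mt-Ts2, mt-Tl2, and mt-Tp had no window. The genome held 109 window positions, of which 11 were not listed. Of these, 9 had complete sequence from annotated genes and 1 had part of it, with 0 CpGs in that sequence, and 1 lay wholly in the control region, whose sequence was not used here. Every mitochondrial window known to hold a CpG was thus in the data, whereas nuclear windows are listed only where their reads passed a filter. Where the sequence was complete, the CpGs counted in it equalled the CpG number in the file in 83 of 83 windows. Mitochondrial windows had 1 to 8 CpGs with a median of 3, and autosomal windows 1 to 34 with a median of 6.

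The windows with the most CpGs, 8 each, lay in the rRNA genes mt-Rnr1 and mt-Rnr2. The mt-Rnr1 window is shown 5′ to 3′ on the forward strand of chromosome M (GRCm38) with CpGs in capitals. It is followed by the window of highest level among those with complete sequence, which lies in mt-Nd5 and has 4 CpGs.
mt-Rnr1, chrM:301-450: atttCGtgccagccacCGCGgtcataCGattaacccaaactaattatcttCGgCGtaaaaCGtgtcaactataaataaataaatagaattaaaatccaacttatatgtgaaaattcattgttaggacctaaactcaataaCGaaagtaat
mt-Nd5, chrM:12751-12900: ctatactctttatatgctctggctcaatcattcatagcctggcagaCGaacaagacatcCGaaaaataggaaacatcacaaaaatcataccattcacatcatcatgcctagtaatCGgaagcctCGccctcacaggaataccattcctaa

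A stretch of this genome has a near-identical copy on chromosome 1. The pseudogenes Gm29216, Gm28661, Gm10925, Gm28437, Gm28438, Gm10222, and Gm28439 lay one after the other at chr1:24611535-24616197, on the minus strand. They matched stretches between bases 6390 and 11042 of chromosome M, from mt-Co1 to mt-Nd4. Of the 98 windows, 29 lay inside this segment, 2 across its edges, and 67 outside it. Parts of the outside sequence also had annotated nuclear matches of lower identity, such as Gm13340 on chromosome 2 (97.6%) and Gm4076 on chromosome 13 (95.2%). The chromosome 1 copy was covered by 27 windows of the same data. Bases were compared only in the aligned parts of the annotated pseudogenes. The stretches between these parts, which hold tRNA genes such as mt-Tg and mt-Tr, were not compared. In the aligned parts only 2 base differences were found between the chromosome 1 pseudogenes and the mitochondrial genes, A6393T in mt-Co1 and T9461C in mt-Nd3. They are written with the mitochondrial base first, the position on chromosome M, and the base of the copy last. The sequences around both differences are shown in the direction of chromosome M, with the base that differs in capitals. The largest strain differences of the mitochondrial and copy windows lie around the mt-Nd3 site.
mt-Co1, chrM:6390-6413: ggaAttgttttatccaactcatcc
Gm29216, chr1:24616165-24616188: ggaTttgttttatccaactcatcc
mt-Nd3, chrM:9459-9481: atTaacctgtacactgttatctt
Gm28438, chr1:24613097-24613119: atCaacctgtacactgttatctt
A further difference, in length, lay between the copies of mt-Nd3 and mt-Nd4l, where the 73 mitochondrial bases that hold the arginine tRNA gene mt-Tr were paired with 74 bases of chromosome 1. The reference sequences are those of GENCODE M21, built on GRCm38. They do not give the sequences of D2 mice.

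The listed windows held 9776537 to 18428398 reads per mouse, and 2404 to 21181 of these, or 0.0223% to 0.141%, lay on chromosome M. The mean level over the 98 windows, in log2 RPKM (reads per kilobase of window, scaled to the size of the library, with a small prior count added), was 3.91 to 6.60 per mouse. The autosomal mean was subtracted within each mouse, and the mitochondrial level was 0.87 ± 0.66 higher (SD, n = 23), from -0.41 to 2.09. In bulk tissue, more copies of the mitochondrial genome and more reads captured per copy cannot be told apart. B6 control mouse 3 had a mitochondrial profile that stood apart from the rest. The mean slopes of level on CpG number and on G + C and the spread between mice are given with and without it.

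Along the genome, the signal was fairly even outside the copied segment, fell inside it, and dropped at the ends of the reference sequence. Each window was set against the mean of the 67 outside windows of the same mouse, and this relative level (log2) is used for all comparisons of shape. The segment with a copy averaged 0.77 ± 0.22 lower than the outside windows (SD, n = 23), and was lower in all mice (0.40 to 1.19). The first window, which holds the phenylalanine tRNA gene mt-Tf and the start of mt-Rnr1, had a relative level of -1.20 on average. The last window, at chrM:16201-16350, had -2.12 and a median of 17 reads. Both touch the place where the circular genome is cut open in the reference, and part of the last window lies beyond the end of the sequence.

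**Figure D1:**
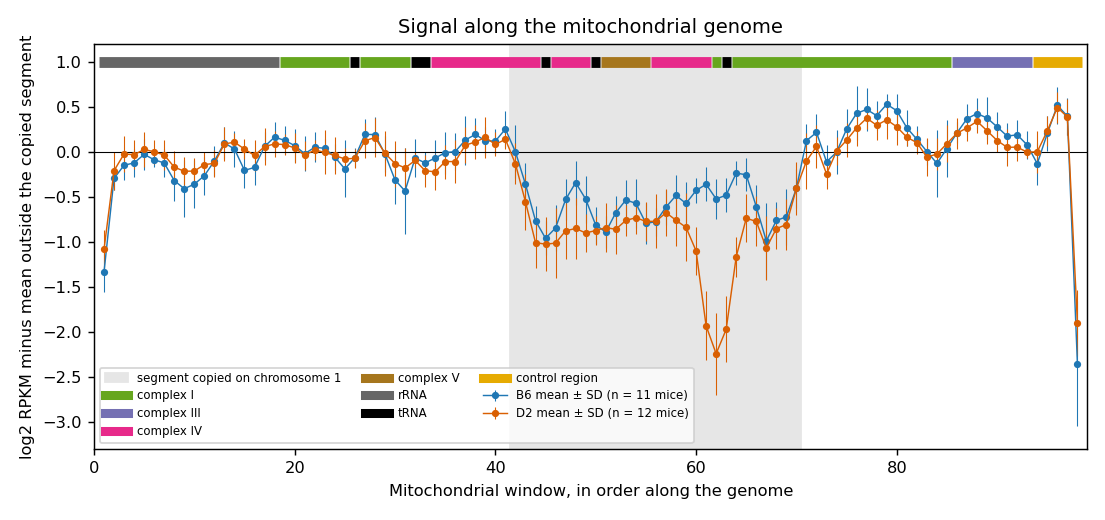
Relative level (log2 RPKM minus the mean of the 67 windows outside the copied segment in the same mouse) of the 98 mitochondrial windows in their order along the genome. Points are strain means with SD (11 B6 and 12 D2 mice), the bar on top gives the kind of gene, and the grey area marks the 29 windows of the segment copied on chromosome 1, where both strains fell and D2 mice fell further in 5 windows around mt-Nd3.

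The 5 windows of highest mean level were in the control region at chrM:15751-15900 (6.00 ± 0.64, SD, n = 23) and chrM:15901-16050 (5.89 ± 0.59), in mt-Nd5 at chrM:12751-12900 (5.93 ± 0.70) and chrM:12451-12600 (5.91 ± 0.69), and in mt-Cytb at chrM:14401-14550 (5.87 ± 0.67). The highest of these had 58 to 262 reads in B6 mice, with a median of 147, and 44 to 326 reads in D2 mice, with a median of 126. The strains overlapped over most of this range. In the control region the relative level rose from -0.06 at chrM:15451-15600 to 0.22 at chrM:15601-15750 and 0.51 at chrM:15751-15900, and was 0.39 in the next window. The window at chrM:5101-5250, which holds the start of light-strand replication between the tRNA genes mt-Tn and mt-Tc, had 6 CpGs and a level of 5.33 ± 0.70. The 5 lowest were the first and the last window and 3 windows around mt-Nd3, at chrM:9301-9450 (4.31 ± 1.21), chrM:9451-9600 (4.07 ± 1.22), and chrM:9751-9900 (4.23 ± 1.13). The SD of these 3 between mice was larger than that of the 5 highest.

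By the function of the genes, complex III of the respiratory chain, of which mt-Cytb encodes the only mitochondrial subunit, had the highest relative level, at 0.21 ± 0.11 over 8 windows. Complex I, the NADH dehydrogenase with 7 mitochondrial subunits, averaged 0.08 ± 0.06 in its 26 outside windows and -0.79 ± 0.27 in its 8 windows of the copied segment. Complex IV, cytochrome c oxidase, with mt-Co1 to mt-Co3, averaged 0.03 ± 0.14 in 7 outside windows and -0.70 ± 0.24 in 13 copied windows. Complex V, ATP synthase, with mt-Atp6 and mt-Atp8, lay wholly inside the segment and averaged -0.75 ± 0.18 over 5 windows. On the same side of the edge of the segment the complexes thus lay close to each other, and within complexes I and IV the inside lay below the outside. The 18 windows of the rRNA genes averaged -0.15 ± 0.08, and the 5 of the control region -0.21 ± 0.17, the last window included. Of single genes, mt-Nd5 (0.24 ± 0.11, 10 windows) and mt-Cytb were the highest, and mt-Nd6, the only protein gene read from the other strand, had -0.01 ± 0.20 over 3 windows.

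The chromosome 1 copy carried reads at the level of the copied segment. Its 27 windows were 0.89 ± 0.11 (SD, n = 23) below the outside mitochondrial windows of the same mouse, with a range of 0.70 to 1.15. Its mean level was 4.60 ± 0.65 log2 RPKM, with a range of 3.28 to 5.78 between mice, against 4.72 ± 0.74 in the copied segment. Away from the mt-Nd3 site, the mean reads per window of both places were added, and mitochondrial windows held 52.4% ± 1.45 of the sum in B6 mice (SD, n = 11) and 52.3% ± 1.75 in D2 mice (n = 12). The share lay between 50.02% and 56.3% in every mouse, so the strains overlapped. The sum of both places was 1.22 ± 0.07 times the reads of the outside mitochondrial windows in B6 mice and 1.08 ± 0.09 times in D2 mice.

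Next, the strains were compared. Each window was fitted with terms for strain, treatment, the interaction of both, age, and sex, and p-values were adjusted over all 210191 windows (Benjamini-Hochberg). In this model the strain term is the difference between D2 and B6 control mice. At an adjusted p under 0.05, 3 mitochondrial windows were lower in D2 mice and 0 were higher, against 25.4% of all windows called, with 14.9% lower and 10.4% higher. A smaller share of mitochondrial windows was thus called than of all windows, and 4 had an unadjusted p under 0.05. Mitochondrial levels spread more between mice than those of most autosomal windows, as given below. A strain difference of the same size was therefore harder to call in them. The median strain difference was -0.09 over the mitochondrial windows, and -0.00073 over the autosomal windows. All 3 windows lay at or next to mt-Nd3, a subunit of complex I. With the set in place of age as a covariate, 0 windows were called and 1 had an unadjusted p under 0.05. Only set 1 held both strains, and it had no B6 control mice, so the strain term of this fit rests on few mice. With age kept, limma's moderated variance called 4 windows and voom weights 7, all lower in D2 mice.

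The window with the mt-Nd3 base difference, chrM:9451-9600, holds the end of the glycine tRNA gene mt-Tg and the start of mt-Nd3. Its sequence, with CpGs in capitals, is shown because it had the lowest mean level of the 98 windows in D2 mice, 3.11 log2 RPKM.
mt-Nd3, chrM:9451-9600: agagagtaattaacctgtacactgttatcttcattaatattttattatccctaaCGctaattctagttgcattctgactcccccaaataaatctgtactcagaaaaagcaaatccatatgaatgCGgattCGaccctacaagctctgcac
It is listed with 4 CpGs, of which 3 lie wholly inside it. The 5 B6 control mice had 29, 78, 69, 117, and 126 reads, and the 6 B6 CORT + DFP mice 30 to 127 with a median of 50. D2 control mice had 9 to 30 reads with a median of 19, and D2 CORT + DFP mice 3 to 40 with a median of 22. In reads the strains overlapped, between 29 and 40. In relative level they did not, with -0.91 to -0.04 in B6 mice and -3.11 to -1.64 in D2 mice. The strain difference was -1.53 ± 0.36 log2 RPKM (SE), with an adjusted p of 0.0034.

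The window at chrM:9301-9450, with the end of mt-Co3 and the start of mt-Tg, had 32 to 159 reads in B6 mice (median 77) and 4 to 72 in D2 mice (median 23.5). Its strain difference was -1.26 ± 0.40 (adjusted p = 0.028). The window at chrM:9751-9900, with mt-Tr, the end of mt-Nd3, and the start of mt-Nd4l, had 23 to 151 reads in B6 mice (median 61) and 8 to 65 in D2 mice (median 20.5). Its strain difference was -1.64 ± 0.38 (adjusted p = 0.0028). In both windows the relative levels of the strains did not overlap, at -0.73 to -0.04 against -2.83 to -1.34 in the first, and at -0.86 to -0.28 against -2.71 to -1.25 in the second.

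The regression was repeated after the mean of all mitochondrial windows was subtracted in each mouse, which removes differences in the total. Then 6 windows were called, with 25.4% of all windows called in the same fit. Lower in D2 were chrM:9151-9300 in mt-Co3, the 3 windows described, and chrM:9901-10050 in mt-Nd4l. In this fit the difference was -1.53 ± 0.19 at chrM:9751-9900 (adjusted p = 3.8e-06), -0.76 ± 0.12 at chrM:9901-10050 (adjusted p = 0.00011), and -0.33 ± 0.11 at chrM:9151-9300 (adjusted p = 0.032). Higher in D2 was chrM:2101-2250 in mt-Rnr2, by 0.36 ± 0.11 (adjusted p = 0.025). In a fit relative to the outside windows alone, which was added once the data had been seen, the 5 lower windows were called again and the mt-Rnr2 window was not.

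On chromosome 1 the order of the strains was the opposite beside the mt-Nd3 site. The copy window at chr1:24612901-24613050, which pairs with chrM:9528-9677 in mt-Nd3, had 15 to 51 reads in B6 mice (median 23) and 18 to 162 in D2 mice (median 54). Its strain difference was 1.14 ± 0.31 (adjusted p = 0.010). The neighbouring window at chr1:24613051-24613200, which holds the copy's base at the mt-Nd3 site, had 9 to 56 reads in B6 mice (median 36) and 21 to 213 in D2 mice (median 71.5). Its strain difference was 1.05 ± 0.35 (adjusted p = 0.034). These 2 were the only ones called of the 27 copy windows (7.4%, against 25.4% of all windows), and both were higher in D2. Their relative levels were -2.51 to -1.28 in B6 and -1.06 to -0.41 in D2 mice in the first window, and -2.07 to -0.80 against -0.85 to -0.05 in the second, where the strains overlapped slightly. Relative to the outside mitochondrial windows, 6 copy windows (22.2%) were called, 3 higher and 3 lower in D2 mice. In the same fit 25.4% of all windows were called. The lower ones were at chr1:24612301-24612450, chr1:24615001-24615150, and chr1:24615151-24615300.

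The mean reads per window of both places were then added around mt-Nd3, in the 4 mitochondrial and 5 chromosome 1 windows within 150 bases of the base difference or of the stretch that differs in length. These windows were chosen after their values were seen, so their shares are a description, with no test. Mitochondrial windows held 62.7% ± 3.96 of the sum of these means in B6 mice (SD, n = 11), with a range of 54.1% to 69.3%, and 30.01% ± 3.13 in D2 mice (n = 12), with a range of 26.2% to 36.0%. The strains did not overlap, while in the rest of the segment the mean share differed by -0.089 percentage points (D2 minus B6). The sum of both places was 1.17 ± 0.09 times the outside mitochondrial level in B6 mice and 0.91 ± 0.11 times in D2 mice, and these ranges overlapped. At the mt-Co1 site near the edge of the segment, the windows at chrM:6301-6450 and chrM:6451-6600 had strain differences of -0.20 (adjusted p = 0.77) and -0.27 (adjusted p = 0.72).

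**Figure D2:**
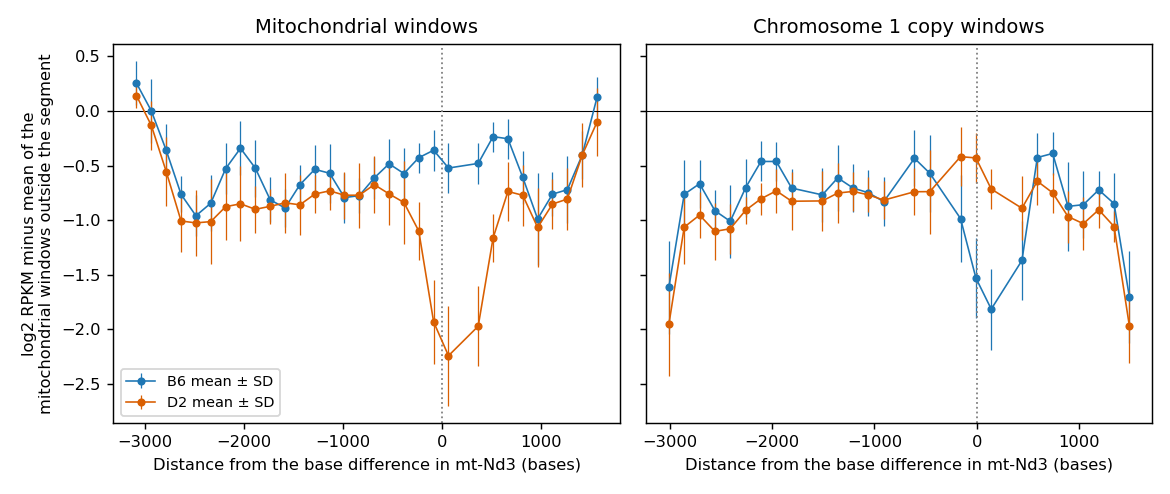
Relative level of the 31 mitochondrial windows in or at the edge of the copied segment (left) and of the 27 windows of the chromosome 1 copy (right), against the distance of the window's centre from the mt-Nd3 base difference in bases of chromosome M, as strain means with SD over 11 B6 and 12 D2 mice. Near the difference D2 mice were low on the mitochondrial side and B6 mice on the chromosome 1 side.

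To see whether the signal followed the CpGs, levels were compared by CpG number. Mitochondrial windows with 1 CpG had a mean level of 5.03 ± 0.69 (SD over 23 mice, 24 windows), against 4.25 ± 0.10 for 4463 autosomal windows with 1 CpG. At 4 CpGs the levels were 5.30 ± 0.69 (19 windows) and 4.32 ± 0.07, and at 8 CpGs 5.48 ± 0.66 (2 windows) and 4.47 ± 0.14. The mitochondrial windows were higher in 19 to 23 of the 23 mice at each CpG number. The autosomal windows are those that passed the filter on reads, so their levels are not those of all autosomal windows with that CpG number. Outside the copied segment, levels ran from 5.37 ± 0.66 at 1 CpG to 5.66 ± 0.69 at 5 CpGs and 5.48 ± 0.66 at 8 CpGs.

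**Figure D3:**
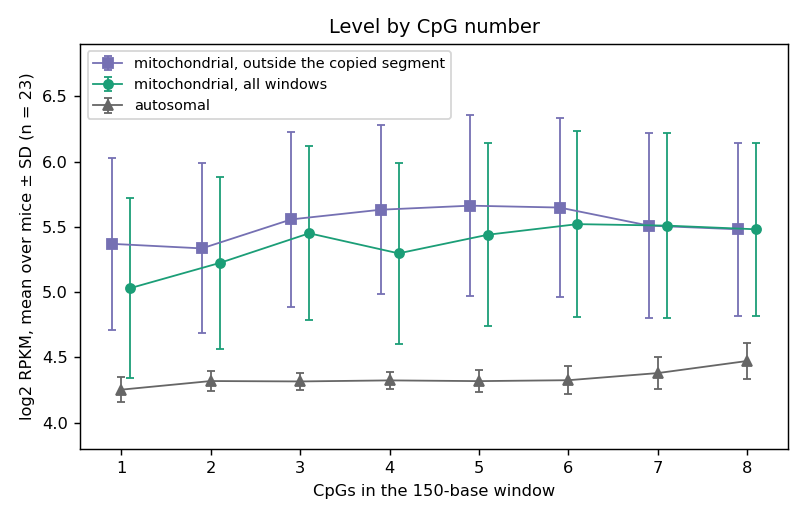
Mean log2 RPKM by the number of CpGs in the window, as the mean and SD over 23 mice of each mouse's average, for all mitochondrial windows, those outside the copied segment, and autosomal windows. The mitochondrial means lay between 5.03 and 5.66 and the autosomal means between 4.25 and 4.47, with far less spread between mice.

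Log2 RPKM rose with the number of CpGs by 0.080 ± 0.023 per CpG in the mitochondrial windows (SD, n = 23) and by 0.034 ± 0.024 in the autosomal windows. By strain, the mitochondrial slope was 0.087 ± 0.028 in B6 and 0.075 ± 0.017 in D2 mice. The autosomal slope was 0.053 ± 0.013 in B6 and 0.016 ± 0.015 in D2 mice. Autosomal windows are listed only where their reads passed the filter, which can change their slope, so the slopes compare unlike sets of windows. The slope was steeper in the mitochondrial windows in 22 of 23 mice, by 0.047 on average (two-sided sign-flip permutation test, p = 1e-05, the smallest that 100000 resamples can give). This test takes the windows as fixed and measures agreement between mice, not how far the slope depends on the windows included. The difference averaged 0.033 in B6 mice and 0.059 in D2 mice. Against autosomal windows in the CpG range of the mitochondrial windows it was 0.058 over all mice. Without the windows of the copied segment the difference was 0.021 (sign-flip permutation p = 0.00086), with 17 of 23 mice steeper. In the 60 windows with known sequence outside the segment and after the first window, a choice made after seeing the data, the slope was 0.028 ± 0.021 and the mitochondrial minus autosomal difference -0.0051 (sign-flip permutation p = 0.34), with 11 of 23 mice steeper. In the same windows the level rose by 0.025 ± 0.018 for each percent of G + C, and the number of CpGs and the percent of G + C were correlated across windows (r = 0.42, n = 60 windows of 1 genome, a description). With both as predictors, the slope on CpG number was 0.0066 ± 0.011, with a range of -0.015 to 0.028, and that on G + C 0.024 ± 0.018. Captured methylated fragments and unmethylated fragments that come through the capture cannot be told apart from these slopes, and no library of uncaptured DNA was analysed here.

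B6 control mouse 3 stood apart in these slopes. Its slope on G + C was 0.094 per percent, with the other 22 mice between -0.0029 and 0.036. Its slope on CpG number over all 98 windows was 0.165, with the others between 0.049 and 0.108, and over the 60 windows its slope on CpG number was 0.103 alone and 0.018 with G + C as a second predictor. Without this mouse the mean slope on CpG number was 0.077 ± 0.014 (SD, n = 22) and that on G + C 0.022 ± 0.010. With both as predictors in the 60 windows, the slopes without it were 0.0060 ± 0.011 on CpG number and 0.020 ± 0.010 on G + C. The mitochondrial level of this mouse, 5.70, and its share of mitochondrial reads, 0.082%, lay within the range of its group.

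**Figure D4:**
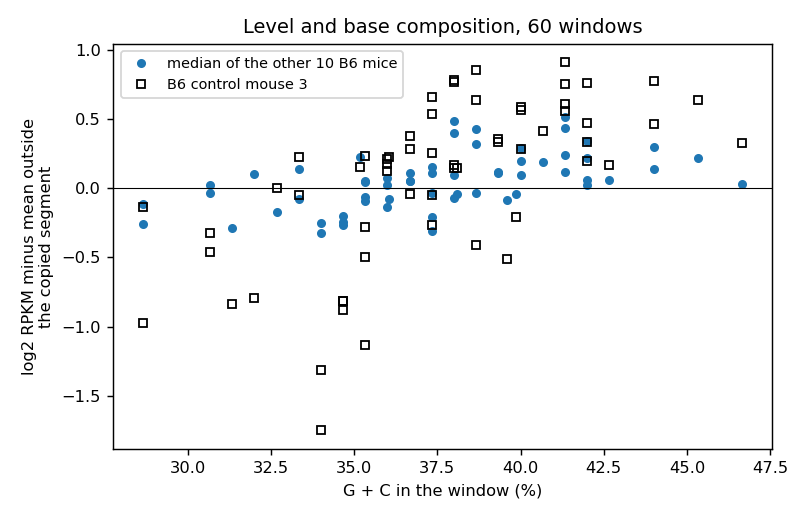
Relative level against the percent of G + C in 60 windows outside the copied segment, for B6 control mouse 3 (squares) and as the median of the other 10 B6 mice (dots). In mouse 3 windows poor in G + C fell well below those of the other mice and windows rich in G + C rose above them, with a slope of 0.094 per percent.

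The mitochondrial level differed between mice far more than counting error gives. The SD of the residuals of the regression was 3.19 times the counting SD in the median mitochondrial window, with a range of 1.83 to 3.87, against 1.06 times in the median autosomal window. Only 0.275% of autosomal windows exceeded the mitochondrial median. With the mitochondrial mean of each mouse subtracted, the ratio fell to 1.10, and without B6 control mouse 3 to 1.03. Most of the spread between mice was thus shared by all windows of the mitochondrial genome. It was not particular to chromosome M, since the 27 windows of the chromosome 1 copy had a median ratio of 2.55, with a range of 1.57 to 2.93.

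The mean level of each mouse was compared between the groups. D2 mice had a level of 5.08 ± 0.67 (SD, n = 12) and B6 mice of 5.47 ± 0.65 (n = 11), a difference of -0.39 (two-sided permutation test, p = 0.17, adjusted p = 0.32 over 6 comparisons of the level). Levels were 3.91 to 6.05 in D2 and 4.43 to 6.60 in B6 mice, which overlapped widely. The difference was -0.24 (permutation p = 0.39) in the 39 windows without a match to an annotated nuclear transcript. The search covered annotated transcripts only and left out the control region, so these windows can still have nuclear copies. Within set 1 the difference was -0.70 (2 against 3 mice, exact permutation p = 0.20, where 0.10 is the smallest possible). Between females and males the difference was 0.04 (permutation p = 0.89). Within the sets it went both ways, at 0.12 in set 1 (exact permutation p = 0.79), -0.72 in set 2 (exact permutation p = 0.057), and 0.43 in set 3 (exact permutation p = 0.23).

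In B6 mice, the 5 control mice had levels of 5.16, 5.57, 5.70, 5.74, and 6.60, and the 6 CORT + DFP mice ran from 4.43 to 6.38 with a mean of 5.24 ± 0.70. The treatment difference was -0.51 (exact permutation test, two-sided, p = 0.21). All 5 control mice were of set 2, and within this set the difference was -0.02 (3 against 5 mice, exact permutation p = 0.93). In D2 mice, CORT + DFP mice had 4.94 ± 0.82 (n = 6) and control mice 5.21 ± 0.53 (n = 6), a difference of -0.27 (exact permutation p = 0.50). It was -0.49 without D2 CORT + DFP mouse 4 and -0.065 without D2 CORT + DFP mouse 2. Within set 3 it was -0.08 (exact permutation p = 0.77) and within set 1 -0.91 (2 against 3 mice, exact permutation p = 0.20, where 0.10 is the smallest possible). The treatment effects of the strains differed by 0.24 (permutation test with treatment rearranged within strain, p = 0.67).

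The levels of set 1 were lower in both strains. In B6 mice they were 4.43 to 4.98 in set 1 (n = 3) and 5.10 to 6.60 in set 2 (n = 8), which did not overlap. The difference was -1.001 (exact permutation p = 0.024, adjusted p = 0.083), or 0.50 times the level. In D2 mice they were 3.91 to 5.39 in set 1 (n = 5) and 4.74 to 6.05 in set 3 (n = 7), with a difference of -0.84 (exact permutation p = 0.028, adjusted p = 0.083). Neither passed the threshold after adjustment. Among D2 control mice alone the difference was -0.53 (3 against 3 mice, exact permutation p = 0.30, where 0.10 is the smallest possible).

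**Figure D5:**
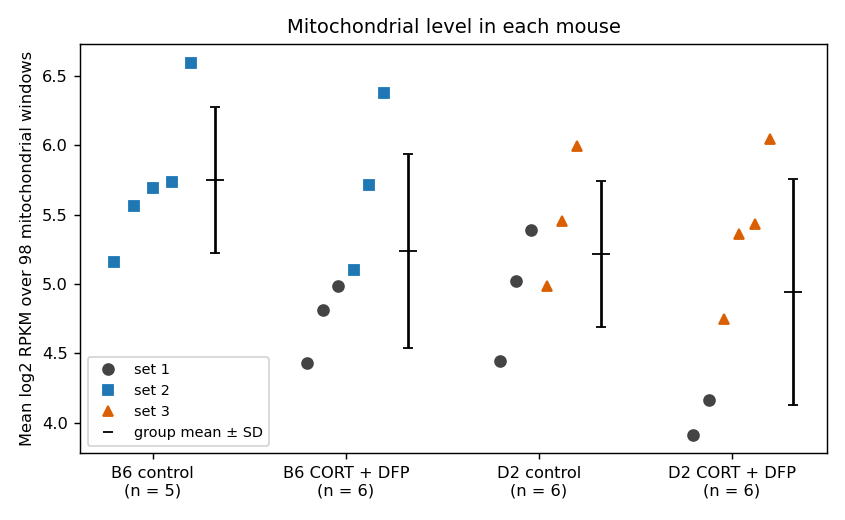
Mean log2 RPKM over the 98 mitochondrial windows in each of the 23 mice, by condition, with the set as the shape of the point and the mean and SD of each condition beside the points. The 3 B6 mice of set 1 lie at 4.43 to 4.98, below all B6 mice of set 2, while in D2 mice the sets overlap.

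Single windows were then tested for treatment. For treatment in B6 mice and for the interaction, 0 mitochondrial windows were called, with 0.0% of all windows called for either, and 0 had an unadjusted p under 0.05. The treatment estimates ran from -0.21 to 0.49 with a median of 0.11, and the smallest adjusted p was 0.92. The interaction estimates were below 0 in all 98 windows, with a median of -0.50 and a smallest adjusted p of 0.75, and windows of a mouse share its level. These directions are opposite to those of the mean level, where the treatment difference in B6 mice was -0.51 and the D2 minus B6 difference of the treatment effects 0.24. The regression has terms for age and sex, which the comparison of mean levels has not, and age cannot be told apart from the set. With limma's moderated variance 0 windows were called for either term and 0 and 5 had an unadjusted p under 0.05 for treatment and interaction, and with voom weights 0 were called and 0 and 2 had. For sex, 0 mitochondrial windows were called, against 5.63% of all windows, and 0 had an unadjusted p under 0.05. With limma 0 were called (1 with an unadjusted p under 0.05), and with voom weights 1 was called.

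The level of each mouse was compared with 3 other measures of its library. With the log2 of the reads in windows Pearson's r was 0.44 (permutation p = 0.037) and Spearman's rho 0.46 (permutation p = 0.029), over 23 mice. With the mean level of the autosomal windows poorest in CpGs r was -0.37 (p = 0.086) and rho -0.34 (p = 0.12). With the slope of the autosomal windows on CpG number r was 0.46 (p = 0.027) and rho 0.44 (p = 0.036). No relation passed adjustment over the 18 computed (smallest adjusted p = 0.22 for r and 0.23 for rho). Without the 2 mice farthest from the median of each measure r was 0.38 (permutation p = 0.086), -0.40 (p = 0.069), and 0.39 (p = 0.084). Within the 3 sets r was 0.13, 0.36, and 0.31 for the reads, 0.11, -0.16, and -0.22 for the CpG-poor windows, and -0.02, 0.31, and 0.10 for the slope, all with adjusted p over the threshold.

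The nuclear genes that maintain the mitochondrial genome were examined as a separate list. Of 19 genes for its replication, transcription, and supply of nucleotides, 11 had windows within the gene or 1000 bases before it, 86 windows in all. For strain, 4 of the 86 were lower in D2 mice and 0 were higher, or 4.65%, against 25.4% of all windows. They lay in Rnaseh1 (2 windows), which encodes an enzyme that removes RNA from RNA-DNA hybrids, in Dna2, a nuclease and helicase, and in Polg, the catalytic subunit of the mitochondrial DNA polymerase. The Polg window at chr7:79459051-79459200 had levels of 4.53 ± 0.30 in B6 mice (SD, n = 11) and 3.65 ± 0.23 in D2 mice (n = 12), a difference of -1.07 ± 0.16 (SE, adjusted p = 3.3e-05). No window of the list was called for treatment or interaction.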

How the data were processed

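MBD-seq libraries of the prefrontal cortex of 23 separate mice were used. Per the labels and the study's methods, DNA was sheared to about 150 bases, captured with MBD2 (MethylMiner), and sequenced, and the authors aligned reads with STAR 2.5.0a to GRCm38, counted each distinct read position once in windows of 150 bases (MEDIPS), dropped windows without a CpG or with few reads, and deposited log2 RPKM values made with edgeR 3.34.1. The deposited score of each window, its coupling factor, is the number of CpGs that the authors counted in it with MEDIPS. Here whole reads were recovered from these log2 values for 100.0% of values, within 0.001 reads, which gave the depth and the counting error. Each of the 210191 windows was fitted by least squares to treatment, strain, their interaction, sex, and age, with Benjamini-Hochberg adjustment and a threshold of 0.05. Alternatives used limma 3.58.1, with and without voom weights on the recovered reads, log2(RPKM + 1), library sizes without normalization factors, other covariates, medians or read shares in place of mean levels, only windows without a nuclear match, and each mouse left out. Mean levels were compared by permutation, exact for small groups and otherwise with 100000 resamples. Gene positions and sequences came from GENCODE M21, and nuclear copies from a BLAST 2.17.0 search of its transcripts at over 90% identity. The rest of the nuclear genome was not searched, and the control region was not part of the query. Scripts were tested on simulated data. Windows to be named were the 5 highest and 5 lowest in level, those of the control region and the light-strand origin, those with the most and fewest CpGs (the latter given as a group), and up to 10 with the smallest p for each term, of which those called are named. The chromosome 1 windows and those at the mt-Co1 site were chosen after the data were seen. The mitochondrial windows and the nuclear gene list were chosen with earlier results of these data known. No duplicated library was found among 55 pairs of mice of the same group. The sequence of 1 window with the most CpGs is not reported here.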

Additional observations from a re-analysis of the deposited data

Results flagged for a closer look

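In 20 comparisons of the 5 or 6 mice of a condition over 5 measures of the mitochondrial windows, 4 had a mouse farther from the others than Dixon's test allows, and chance gives about 1 in 20. Of these, 3 were B6 control mouse 3. Its slope of level on CpG number was 0.165, with the next mouse of the group at 0.0793. Its slope on G + C was 0.0945 per percent, with the next at 0.0300. The SD of its profile around the median of the other mice of its strain was 0.459, with the next at 0.228 and a counting SD of 0.159. B6 CORT + DFP mouse 2 had a slope on G + C of 0.0330 per percent, with the next at 0.0280 and the lowest of the group at 0.0251, so this group as a whole lay close together.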

How the results depend on the processing

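Of 323 alternatives, 287 were rated the same as the main result, 21 weaker, 4 stronger, and 11 reversed in direction, and the causes were not tested. Levels, slopes, and relations were rated by direction and by the side of the threshold. Their p-values were not adjusted over the comparisons of the level or the relations. Counts of called windows, which use adjusted p, were rated by how close they lay to the main count. A count rated weaker or stronger thus need not have crossed a threshold. The windows lower in D2 mice numbered 0 with the set in place of age and 7 with voom weights, and 2 to 3 without single mice. Relative to the mitochondrial mean, 11 windows were called with voom weights, among them all 6, 5 with the set in place of age (3 lower and 2 higher in D2 mice, 4 of them among the 6), and 4 to 6 without single mice. For sex, voom weights called 1 window. The set 1 minus set 2 difference in B6 mice was -0.99 among CORT + DFP mice, -1.48 among males, and -0.40 among females, none past the threshold, and -1.12 to -0.85 without single mice. The set 1 minus set 3 difference in D2 mice was -1.36 among CORT + DFP mice, -0.53 among control mice, -0.60 among males, and -1.02 among females, none past the threshold, and -1.05 to -0.68 without single mice, where the unadjusted p passed the threshold except without D2 CORT + DFP mouse 1 or 2 or D2 control mouse 2 (exact permutation p up to 0.064). The treatment difference in B6 mice was -0.74 to -0.30 without single mice, with an unadjusted p past the threshold without B6 CORT + DFP mouse 6 (-0.74, exact permutation p = 0.040). The female minus male difference was -0.079 to 0.165 without single mice, below 0 in 7 of 23 cases, and -0.72 in set 2 (exact permutation p = 0.057). The slope difference was -0.0051 in the 60 windows. For the reads r was 0.385 without the 2 farthest mice, 0.396 in B6 mice, 0.616 in D2 mice (permutation p = 0.035, adjusted p = 0.22), and 0.127, 0.358, and 0.309 in sets 1, 2, and 3. For the CpG-poor windows it was 0.115 in set 1. For the autosomal slope it was 0.386 without the 2 farthest mice, 0.487 in B6 mice, 0.326 in D2 mice, and -0.0198, 0.311, and 0.102 in the sets. The median mitochondrial window had 25 to 243 reads, depending on the mouse.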
